A study of Rhinolophus ferrumequinum with 8 samples.

Results

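The glucocorticoid receptor gene NR3C1 and 9 genes that glucocorticoids are known to induce (FKBP5, ZBTB16, KLF9, TSC22D3, FAM107A, SGK1, CEBPD, ERRFI1 and GLUL) were followed in whole spleen of the greater horseshoe bat, Rhinolophus ferrumequinum. They were chosen by name, with earlier results of these data known. All 10 were found, with 1 row each, among the 19652 genes of the deposited table. All 10 were also among the 13542 genes with a mean level of at least 1 over the libraries, which were the genes tested. The samples were 8 spleens of wild female bats, 2 in each of 4 states: summer active (July), torpor (November), arousal (November, 2 h after capture) and winter active (November, 26 h after capture). No allele or drug treatment was involved, and no source used here gives the ages of the bats. A library is called by its state and number, such as arousal 2.

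Glucocorticoids are adrenal steroids that cross the cell membrane and bind a receptor held ready in the cytoplasm by the HSP90 chaperone machinery. The bound receptor enters the nucleus, attaches to DNA with coactivators and raises transcription of a set of genes, several of which restrain the response in turn. In mammals the hormone acts on lymphocytes and macrophages, the main cells of the spleen, and its release follows a daily rhythm and rises with handling.

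Levels are TPM, transcript abundance per unit of length, as rescaled by the authors. The table holds no read counts, so the depth behind a value is unknown and no counting interval is given. Columns summed to between 745098 and 1331820, with the lowest sums in both arousal libraries and the highest in both summer active libraries. A result called "rescaled to equal totals" was obtained with every column set to 1000000. Each difference is between log2(value + 1) means, so changes of low genes are understated, and carries the standard error (SE) and adjusted p of limma's moderated test over all 13542 genes. With 2 libraries in a state, means are given ± SD (n = 2), and p-values measure the spread between these bats. In whole tissue, fewer cells of a type and less RNA per cell cannot be told apart. Markers of spleen cells were present throughout, with 8 of 8 B cell and 12 of 12 macrophage markers above 0 in every library. Markers of other organs were uneven, and are given beside the results below.

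**Figure D1:**
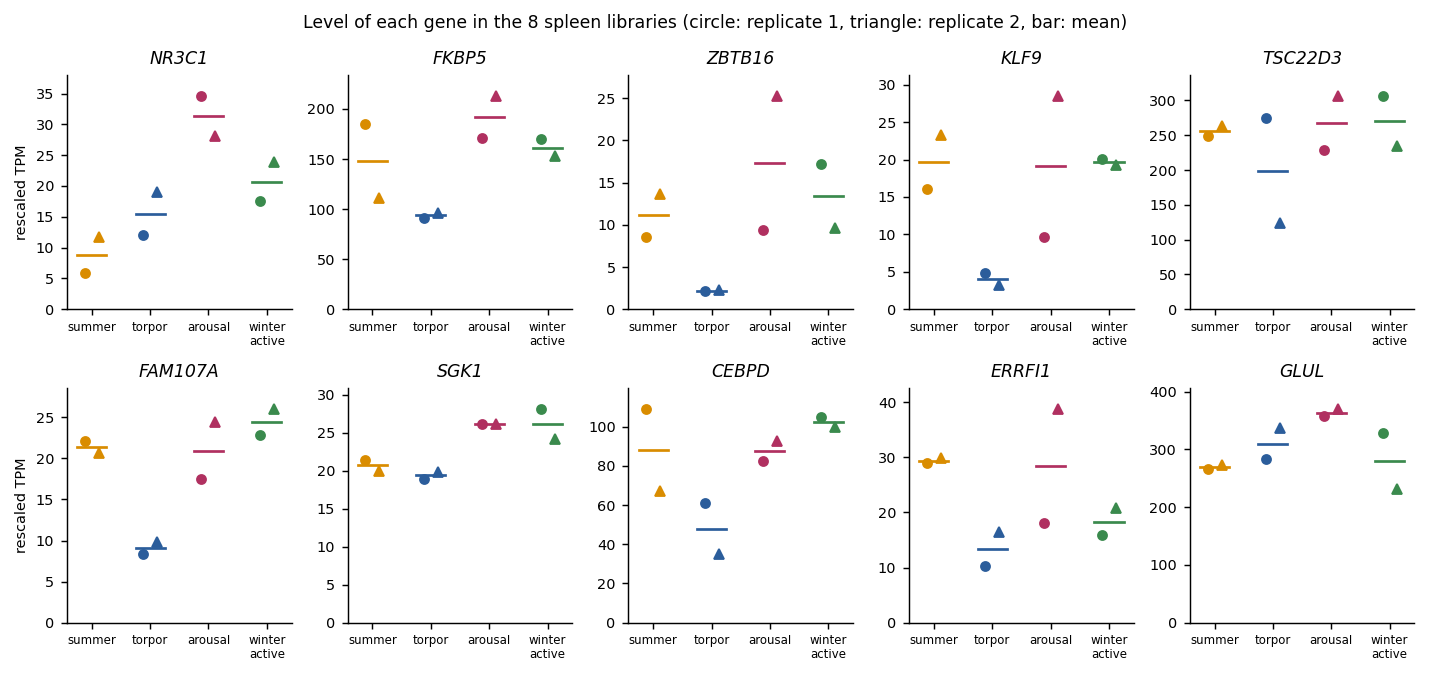
Rescaled TPM (vertical axes, each from 0) of the receptor gene and the 9 induced genes in the 8 spleen libraries, by state (circles, replicate 1; triangles, replicate 2; bars, mean of the 2). In 6 panels (FKBP5, ZBTB16, KLF9, FAM107A, SGK1 and CEBPD) both torpor points lie below the other 6, whereas in NR3C1 both summer active points are the lowest and both arousal points the highest.

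NR3C1, the receptor itself (NCBI gene 117016549), was lowest in summer and highest at arousal. Its level was 5.82 and 11.7 in summer active, 12.02 and 19.0 in torpor, 34.6 and 28.1 in arousal, and 17.5 and 23.9 in winter active. The libraries of torpor and winter active overlapped, while both summer libraries lay below the other 6 (summer active 2 narrowly), as in 9.37% of all genes tested, and both arousal libraries above the other 6, as in 9.81%. The means in rising order were 8.76 ± 4.16 in summer active, 15.5 ± 4.95 in torpor, 20.7 ± 4.54 in winter active and 31.3 ± 4.63 in arousal. No difference between neighbours in that order passed the test: torpor exceeded summer active by 0.80 (SE 0.36, adjusted p = 0.341), winter active exceeded torpor by 0.41 (SE 0.36, adjusted p = 0.644), and winter active against arousal gave -0.58 (SE 0.36, adjusted p = 0.825). Without 1 library these differences ran from 0.35 to 1.24, from 0.10 to 0.72 and from -0.80 to -0.37.

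NR3C1 rose at arousal against summer active, at 31.3 ± 4.63 against 8.76 ± 4.16, a log2 difference of 1.79 (SE 0.36, adjusted p = 0.0422). It was the only 1 of the 10 genes called in that comparison, where 5.52% of all genes tested were called in either direction and 2.39% of all genes tested were called higher. The call did not survive the loss of any library: without 1 of the 8 the difference was 1.34 to 2.24, and the adjusted p was 0.0819 without summer active 1, 0.0864 without summer active 2, 0.0599 without torpor 1, 0.0607 without torpor 2, 0.164 without arousal 1, 0.0965 without arousal 2, 0.0715 without winter active 1 and 0.0710 without winter active 2. With no filter on low genes the adjusted p was 0.0696. Rescaled to equal totals, the difference was 2.51 (adjusted p = 0.00783), at an all-gene median of 0.76 against 0.083 before. After that rescaling 5833 genes were called higher and 266 lower, against 323 higher and 425 lower before. The winter active level of NR3C1 exceeded the summer level by 1.21 (SE 0.36, adjusted p = 0.205), with no overlap, and the arousal level exceeded the torpor level by 0.99 (SE 0.36, adjusted p = 0.213), also with no overlap.

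The genes most like NR3C1 over the 8 libraries were PCYT1A, FAM168B, NCEH1, TNPO1 and IGF1R. Likeness was measured as the root mean square distance between log2 values centred on each gene's own mean, and these 5 lay at 0.148 to 0.186, against a spread of 0.718 in NR3C1 itself. PCYT1A, an enzyme of phosphatidylcholine synthesis, had levels of 6.41 and 9.03 in summer active, 9.57 and 15.4 in torpor, 32.4 and 26.3 in arousal, and 14.1 and 20.0 in winter active. It shared with NR3C1 the low summer pair, the high arousal pair and the order of the replicates within every state. PCYT1A was picked for its closeness to NR3C1 over these same libraries, so this sharing follows largely from the choice.

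ZBTB16 (NCBI gene 117030260), which encodes the transcription factor PLZF, was low in torpor. Its level was 8.60 and 13.7 in summer active, 2.12 and 2.24 in torpor, 9.33 and 25.3 in arousal, and 17.2 and 9.63 in winter active. Both torpor libraries lay below the other 6, and the spread within torpor (2.18 ± 0.0779) was small beside that within arousal (17.3 ± 11.3). KLF9 (NCBI gene 117031909), a Krüppel-like transcription factor that tracks the hormone in many tissues, stood at 16.0 and 23.3 in summer active, 4.78 and 3.24 in torpor, 9.67 and 28.5 in arousal, and 20.1 and 19.3 in winter active. Its 2 torpor libraries were again the lowest, and its 2 arousal libraries were the lowest and the highest of the remaining 6. Over the 8 libraries ZBTB16 was the gene most like KLF9 of all genes tested with a real symbol, at a distance of 0.336 against a spread of 0.953 in KLF9. The next were RHPN2, RNF125, KLF15 and PDP2 at 0.360 to 0.433.

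FAM107A (NCBI gene 117037045), an actin-associated protein induced by stress hormones in brain, had 22.1 and 20.7 in summer active, 8.40 and 9.80 in torpor, 17.5 and 24.4 in arousal, and 22.9 and 26.0 in winter active. The torpor pair lay below the rest, and the SDs within states ran from 0.973 in summer active to 4.87 in arousal. FKBP5 (NCBI gene 117020173), the co-chaperone FKBP51 that lowers the receptor's affinity for hormone, had 185 and 112 in summer active, 91.4 and 96.0 in torpor, 171 and 213 in arousal, and 170 and 153 in winter active. Its torpor pair was the lowest, though summer active 2 came near it. The genes most like FKBP5 were PSME4, SLC2A12, BCR, ZHX3 and CASKIN2, at distances of 0.127 to 0.147 against a spread of 0.428 in FKBP5.

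CEBPD (NCBI gene 117033642), a C/EBP transcription factor of the acute response, had 109 and 67.0 in summer active, 61.2 and 34.8 in torpor, 82.7 and 92.7 in arousal, and 105 and 99.9 in winter active. Torpor 1 and summer active 2 were close, and the torpor pair was nevertheless the lowest. SGK1 (NCBI gene 117019130), a kinase that regulates ion transport, varied least of the 10. It had 21.4 and 19.9 in summer active, 18.9 and 19.9 in torpor, 26.1 and 26.1 in arousal, and 28.1 and 24.1 in winter active. Its highest library was 1.48 times its lowest, and only 7.55% of genes tested had a smaller range. Torpor 2 and summer active 2 were almost equal, so its place as the lowest in torpor rests on a small margin.

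The remaining 3 induced genes did not share the low torpor pair. TSC22D3 (NCBI gene 117022857), known as GILZ and an effector of glucocorticoids in lymphocytes, had 249 and 263 in summer active, 275 and 123 in torpor, 229 and 306 in arousal, and 306 and 235 in winter active. Torpor 2 alone was low, and torpor 1 was higher than both summer libraries. ERRFI1 (NCBI gene 117026801), a feedback inhibitor of the EGF receptor, had 29.0 and 29.8 in summer active, 10.2 and 16.4 in torpor, 18.0 and 38.8 in arousal, and 15.9 and 20.7 in winter active. Torpor 2 lay above winter active 1, so torpor and winter active overlapped, while the summer and arousal libraries all lay above both torpor libraries. GLUL (NCBI gene 117014438), glutamine synthetase, had 267 and 273 in summer active, 283 and 337 in torpor, 358 and 370 in arousal, and 328 and 231 in winter active. Its arousal pair was the highest, and its lowest library was winter active 2.

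The moderated F test of any difference among the 4 states called none of the 10 genes, while it called 0.783% of all genes tested. The smallest adjusted p was 0.0905 for FAM107A, followed by 0.118 for ZBTB16, 0.124 for KLF9 and 0.130 for NR3C1. At an unadjusted p under 0.05, 6 of 10 passed, against 22.5% of all genes tested, and they were NR3C1, FKBP5, ZBTB16, KLF9, FAM107A and CEBPD. Rescaled to equal totals, the F test called 7 of the 10, and 2977 of all 13542 genes tested, against 106 before. The pattern of both torpor libraries below the other 6 was held by 6 of the 10 genes and by 8.48% of all genes tested. It was held by 6 or 7 members when any 1 of the other 6 libraries was left out, with 8.91% to 12.1% of all genes, and by 4 after rescaling, with 5.48% of all genes.

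**Figure D2:**
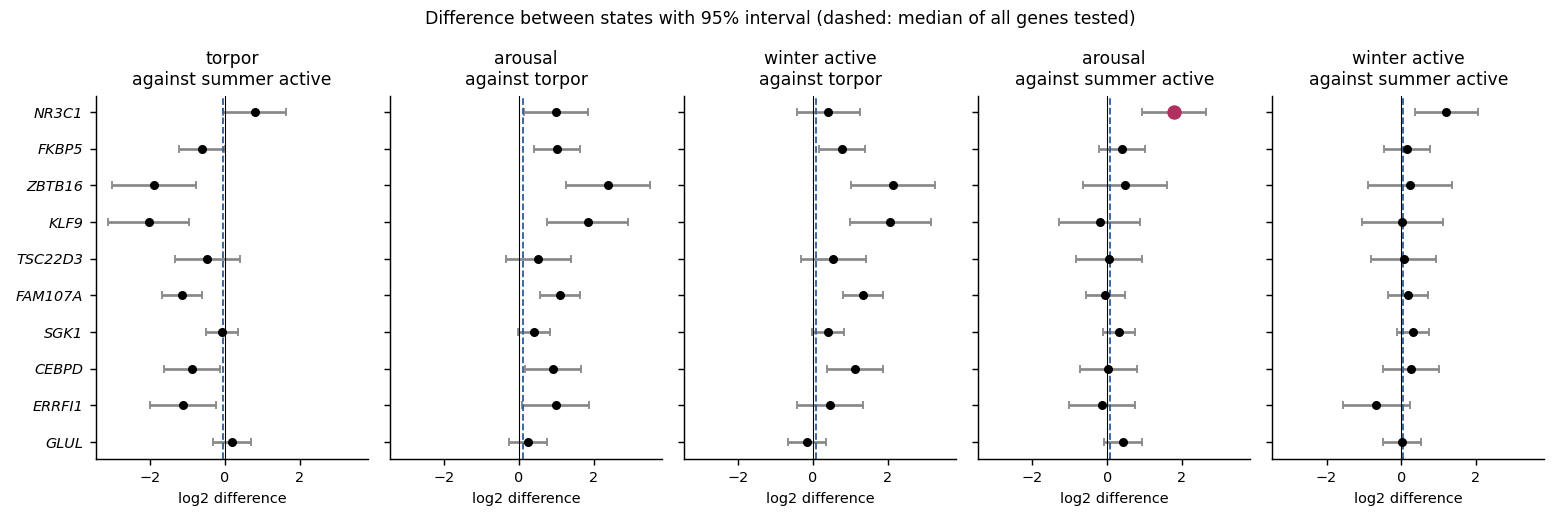
Log2 differences (horizontal axes, on log2(value + 1) of rescaled TPM) of the 10 genes in 5 comparisons, with 95% intervals from limma; the dashed line is the median of all genes tested, and the red point is the only difference with an adjusted p under 0.05. The induced genes lie mostly left of 0 in torpor against summer active, mostly right of 0 in both comparisons with torpor, and between -0.67 and 0.47 in arousal and in winter active against summer active, where NR3C1 lies at 1.79 and 1.21.

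In torpor against summer active, which asks how hibernating spleen differed from summer spleen, 8 of the 9 induced genes had lower fitted levels. So had 7435 of all 13542 genes tested. None of the 9 passed the test. The largest differences were -2.04 for KLF9 (SE 0.46, adjusted p = 0.121), -1.90 for ZBTB16 (SE 0.48, adjusted p = 0.147), -1.15 for FAM107A (SE 0.23, adjusted p = 0.0882) and -1.12 for ERRFI1 (SE 0.38, adjusted p = 0.223). CEBPD and FKBP5 differed by -0.87 and -0.61, TSC22D3 by -0.47 and SGK1 by -0.09, while GLUL differed by 0.19. With 1 library left out, CEBPD ran from -1.27 (without torpor 1) to -0.48 (without torpor 2) and FKBP5 from -0.98 (without summer active 2) to -0.25 (without summer active 1). The median over the 9 was -0.87, beside -0.06 over all genes tested. It was -0.53 without summer active 1 and -0.48 after rescaling to equal totals, when the all-gene median was 0.29, and ran down to -1.10 without summer active 2. Of the 10 genes, 7 had both torpor libraries below both summer libraries, as had 26% of all genes, and 5 had an unadjusted p under 0.05 on the lower side, as had 9.71% of all genes. The test called 0.561% of all genes, 10 higher and 66 lower (20 and 36 when rescaled to equal totals). Those all-gene calls numbered 9 without torpor 2 and 312 without summer active 1. NR3C1 and GLUL had both torpor libraries above both summer libraries, as had 20.4% of all genes. Without torpor 2, TSC22D3 differed by 0.10, and rescaled to equal totals SGK1 differed by 0.29, so neither sign was stable.

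In arousal against torpor, which covers the first 2 h after capture, all 10 genes had higher fitted levels. So had 7858 of all 13542 genes tested. None of the 10 passed, as no gene in the whole table did (0% called by limma, smallest adjusted p = 0.142, with 19.7% at an unadjusted p under 0.05). ZBTB16 differed by 2.37 (SE 0.48, adjusted p = 0.142), KLF9 by 1.84 (SE 0.46, adjusted p = 0.155), FAM107A by 1.11 (SE 0.23, adjusted p = 0.142) and FKBP5 by 1.02 (SE 0.26, adjusted p = 0.159). ERRFI1 and CEBPD differed by 0.98 and 0.91, TSC22D3 by 0.52, SGK1 by 0.41 and GLUL by 0.24. The median over the 9 induced genes was 0.98, beside 0.11 over all genes. Both arousal libraries lay above both torpor libraries in 9 of 10 genes, against 31.9% of all genes, and 7 of 10 had an unadjusted p under 0.05 on the higher side, against 12.8% of all genes. Rescaled to equal totals, FKBP5, ZBTB16, KLF9 and FAM107A were called (adjusted p = 0.0465, 0.0456, 0.0492 and 0.0456), when the all-gene median was 0.45 and the table as a whole had 441 genes higher and 4 lower.

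In winter active against torpor, 26 h after capture, 8 of the 9 induced genes had higher fitted levels, beside 7679 of all 13542 genes. Again none of the 10 passed and limma called 0% of all genes, although 13.2% had an unadjusted p under 0.05. ZBTB16 differed by 2.13 (SE 0.48), KLF9 by 2.06 (SE 0.46), FAM107A by 1.34 (SE 0.23), CEBPD by 1.13 (SE 0.32) and FKBP5 by 0.78 (SE 0.26), with adjusted p from 0.271 to 0.320. FAM107A ranked 22nd by p of all genes tested in this comparison. The median over the 9 was 0.78, beside 0.08 over all genes. Of the 10 genes, 6 had no overlap on the higher side, against 29.6% of all genes, and 5 had an unadjusted p under 0.05, against 9.09%. TSC22D3 and ERRFI1 differed by 0.54 and 0.46 and GLUL by -0.16, each with overlapping libraries. With arousal and winter active pooled against torpor, FAM107A, ZBTB16 and KLF9 had the smallest adjusted p (0.110, 0.110 and 0.111). There limma called 0% of all genes, with 19.6% at an unadjusted p under 0.05. On the higher side 6 of the 10 had such a p, against 13.4% of all genes, and 6 had no overlap, against 20.1%. The comparisons of arousal and of winter active with torpor share the torpor libraries and are not independent of each other, and both share them with torpor against summer active.

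Against summer active, none of the 9 induced genes passed the test in winter active or in arousal. In winter active against summer active the 9 differences ran from -0.67 for ERRFI1 to 0.32 for SGK1, with a median of 0.16 beside 0.05 over all genes. That median was 0.03 without summer active 1, 0.11 without summer active 2, -0.0014 without winter active 1 and 0.26 without winter active 2. After rescaling to equal totals it was 0.73, beside an all-gene median of 0.55. KLF9 stood at 19.7 ± 0.532 in winter active and 19.7 ± 5.13 in summer active, a difference of 0.02 with a 95% interval from -1.06 to 1.11. For FAM107A the difference was 0.18, with an interval from -0.35 to 0.71. None of the 10 was called, against 1.03% of all genes, and NR3C1 alone had an unadjusted p under 0.05 (7.88% of all genes on the higher side). Of the 10, NR3C1, FAM107A and SGK1 had no overlap on the higher side, against 27.2% of all genes, and ERRFI1 on the lower side, against 21.9%. In arousal against summer active the 9 ran from -0.20 for KLF9 to 0.47 for ZBTB16, with a median of 0.05 beside 0.08 over all genes. That median was -0.16 without arousal 2, with 3 of the 9 above 0, and 0.39 without arousal 1, with 9 of the 9 above 0. It was 0.17 without summer active 1, and 0.82 after rescaling to equal totals, beside an all-gene median of 0.76. The 95% intervals ran from -1.28 to 0.89 for KLF9 and from -0.21 to 1.02 for FKBP5. NR3C1, SGK1 and GLUL had no overlap on the higher side, against 32% of all genes. Rescaled to equal totals, FKBP5, SGK1, GLUL and FAM107A were called higher there, FAM107A with a turned sign (adjusted p = 0.0136, 0.00873, 0.00803 and 0.0491) beside NR3C1. Over all genes that rescaling called 5833 higher and 266 lower there, against 323 and 425 before. In winter active against summer active the same rescaling called NR3C1 and SGK1 (adjusted p = 0.0472 and 0.0478), and over all genes 662 higher and 117 lower, against 19 and 121 before. In winter active against arousal limma called none of the 10 and 0% of all genes, and an unadjusted p under 0.05 was found in none of the 10 and 5.45% of all genes. Only CEBPD had no overlap on the higher side, against 18.1% of all genes, and NR3C1, FKBP5 and GLUL on the lower, against 21.3%. The largest differences there were -0.58 for NR3C1, -0.52 for ERRFI1 and -0.40 for GLUL.

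**Figure D3:**
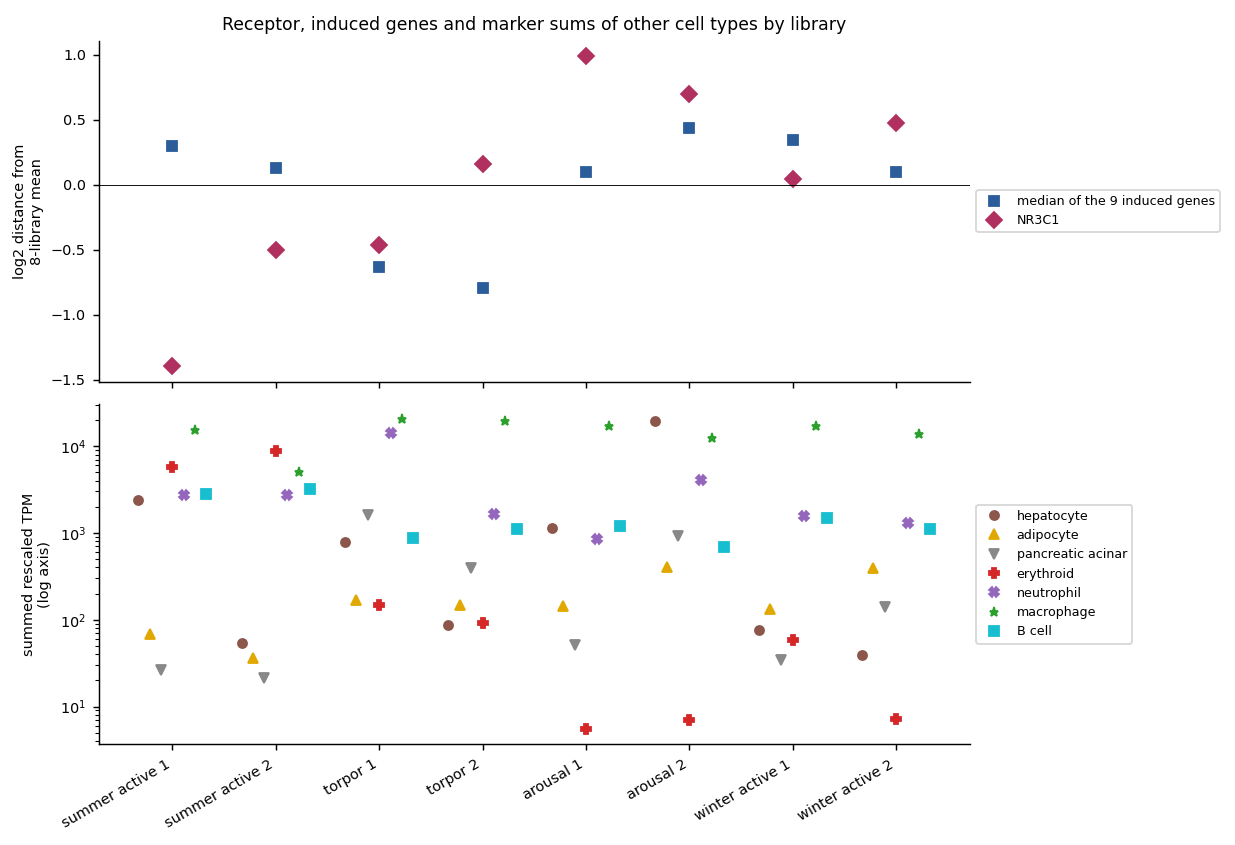
Upper panel: log2 distance of NR3C1, and the median distance of the 9 induced genes, from their 8-library means in each library. Lower panel: summed rescaled TPM (log axis) of marker genes of 7 cell types in the same libraries, with points shifted sideways for legibility. The induced genes lie at -0.64 and -0.80 in the torpor libraries and between 0.098 and 0.44 elsewhere, NR3C1 is at its lowest in summer active 1, and the hepatocyte sum peaks in arousal 2.

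The replicates of arousal were far apart for several induced genes. KLF9, ZBTB16 and ERRFI1 exceeded their arousal 1 levels in arousal 2 by 1.47, 1.35 and 1.06, more than 96.7%, 96.3% and 94.9% of all genes tested, while NR3C1 differed by -0.29. Arousal 2 was the highest library for 6 of the 10 genes. The share of all genes that were highest in arousal 2 was not computed, so this count has no background beside it. Arousal 2 also carried the markers of hepatocytes: 10 of 12 listed markers were in the table and all 10 were above 0 in it, with a sum of 19309 against 1147 in arousal 1. In the other states the sum ran from 86.6 to 792 in torpor, 39.4 to 76.7 in winter active and 53.7 to 2384 in summer active, so that no state was free of them. Adipocyte markers (9 of 10 in the table) summed to 404 in arousal 2 and 144 in arousal 1, to 150 and 167 in torpor, to 132 and 397 in winter active and to 36.5 and 69.0 in summer active. The part of these cells in the levels of arousal 2 was not tested. Without arousal 2, the arousal against torpor differences were 1.11 for KLF9, 1.70 for ZBTB16, 0.45 for ERRFI1, 0.88 for FAM107A and 0.86 for FKBP5, and without arousal 1 they were 2.58, 3.05, 1.51, 1.33 and 1.18.

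The torpor libraries also differed from each other. TSC22D3 was lower in torpor 2 than in torpor 1 by a log2 difference of -1.15, lower than that of all but 2.91% of genes tested, and CEBPD by -0.80 (all but 5.85%). NR3C1 and ERRFI1 went the other way, by 0.62 and 0.64. Torpor 1 had the larger neutrophil sum (10 of 11 markers in the table), 14138 against 1646 in torpor 2, and the larger pancreatic sum (9 of 10), 1616 against 396. In other states the neutrophil sum was 847 and 4074 in arousal, 1553 and 1317 in winter active and 2703 and 2739 in summer active. The pancreatic sum was 51.4 and 931 in arousal, 34.5 and 139 in winter active and 26.2 and 21.1 in summer active. The erythroid, B cell and T cell sums were higher in both summer active libraries than in every November library, which the neutrophil sum was not. Single markers did not all follow the sums, and CD8A, CD22 and MS4A1 were among those that overlapped between summer and November. The erythroid sum (9 of 10) was 91.4 and 149 in torpor, 5.51 and 7.04 in arousal and 7.17 and 58.0 in winter active, against 5778 and 8709 in summer active. The B cell sum (8 of 8) was 885 and 1124 in torpor, 694 and 1201 in arousal and 1124 and 1488 in winter active, against 2801 and 3167 in summer active. The T cell sum (7 of 10) was 154 and 187 in torpor, 112 and 180 in arousal and 183 and 250 in winter active, against 268 and 324 in summer active. The macrophage sum (12 of 12) was lowest in summer active 2, at 4965 against 12324 to 20485 in the other 7 libraries. Squamous and gastric epithelial markers (4 of 8: KRT4, MUC5AC, GKN1 and GKN2) summed to 1618 in summer active 2 and 1275 in winter active 2. They summed to 39.7 or less elsewhere, with KRT4 at 0 in arousal 1. The 2 high sums came from different genes. KRT4 was at 1617 in summer active 2 and 0.119 in winter active 2, where GKN1 was at 666 and GKN2 at 594. Muscle markers (4 of 6) summed to 26.5 or less in every library. The part of these cell types in the differences between states was not tested.

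Of 28 other genes listed as glucocorticoid-induced, 27 were tested. Lower fitted levels in torpor than in summer active were found in 19, beside 7435 of all 13542 genes (medians -0.42 and -0.06). Limma called none of the 27 there, against 0.561% of all genes. Unadjusted, 6 had a p under 0.05 on the lower side and 2 on the higher, against 9.71% and 6.28% of all genes. In arousal against torpor 21 of the 27 were higher, beside 7858 of all 13542 genes, with medians of 0.45 and 0.11. Of the 27, 23 were higher in winter active against torpor, beside 7679 of all 13542 genes, with medians of 0.51 and 0.08. None was called in either, where limma called 0% of all genes. At an unadjusted p under 0.05, 10 and 9 were higher, against 12.8% and 9.09% of all genes. PER1, a clock gene with a hormone response element, had 8.15 and 6.78 in torpor, against 16.0 and 16.7 in summer active, a difference of -1.04 (SE 0.26, adjusted p = 0.146). It differed by 1.01 in arousal and 1.07 in winter active against torpor. Both torpor libraries of PER1 lay below the other 6, as did those of CXCR4, KLF15, NFKBIA and ZFP36L2, which makes 5 of the 27 genes, against 8.48% of all genes tested. KLF15, a metabolic regulator related to KLF9, had 23.6 and 22.7 in summer active, 3.52 and 2.36 in torpor, 4.46 and 28.9 in arousal, and 18.0 and 20.5 in winter active, so arousal 1 was close to torpor and arousal 2 was the highest library. FOXO3, a transcription factor of fasting and stress, had 19.3 and 21.7 in arousal, against 2.97 and 6.21 in torpor, a difference of 2.00 (SE 0.34, adjusted p = 0.142).

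Not every listed gene was low in torpor. PDK4, which curbs glucose oxidation, had 32.5 and 49.7 in summer active, 81.7 and 67.9 in torpor, 239 and 157 in arousal, and 103 and 119 in winter active. It rose at arousal against summer active by 2.24 (SE 0.29, adjusted p = 0.0136), a call lost without arousal 1 (adjusted p = 0.0737) or arousal 2 (0.0547). THBD, the thrombin receptor thrombomodulin, rose there by 1.79 (SE 0.35, adjusted p = 0.0391), at 58.7 and 61.3 in arousal against 25.3 and 10.9 in summer active. Its call was lost without any library but summer active 1 (adjusted p = 0.0652 to 0.143) and with no filter (0.0658). These were the 2 of 27 called in that comparison, both higher, where 2.39% of all genes were called higher, and the list's median was -0.03. In 5 genes of the list (CXCR4, SAP30, SESN1, TXNIP and ZFP36L2) both summer libraries lay above the other 6, as in 10.3% of all genes. Of these, CXCR4 and ZFP36L2 also had both torpor libraries below the other 6. In torpor against summer active they differed by -2.59 (SE 0.54, adjusted p = 0.101) and -1.26 (SE 0.24, adjusted p = 0.0787).

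**Figure D4:**
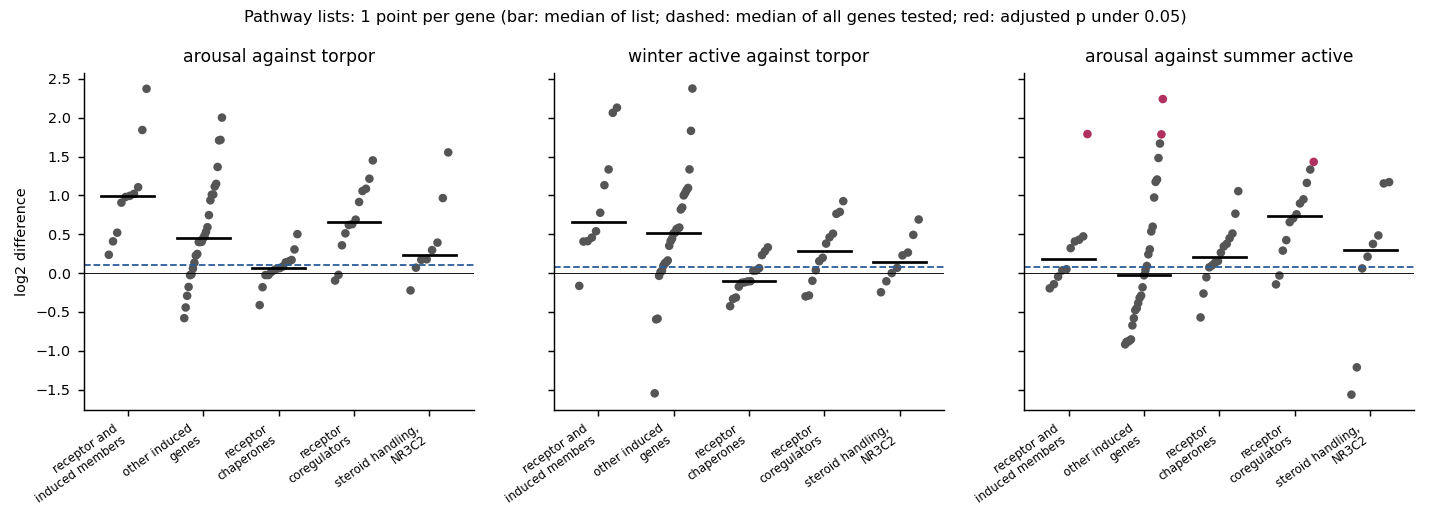
Log2 differences (vertical axis) of the genes of 5 lists, 1 point per gene, in 3 comparisons; bars are list medians, the dashed line is the median of all genes tested, and red points have an adjusted p under 0.05. Coregulators of the receptor have medians of 0.66, 0.29 and 0.73, whereas the receptor's chaperones lie around the median of all genes with torpor as the reference.

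Among 12 coregulators, which carry the activity of the DNA-bound receptor, NCOA2 rose at arousal against summer active, at 26.2 and 20.5 against 7.21 and 8.78, a difference of 1.43 (SE 0.26, adjusted p = 0.0331). NCOA2 is a p160 coactivator, and its call was lost without any 1 of the 8 libraries (adjusted p = 0.0537 to 0.144) and with no filter (0.0570). It was the only 1 of 12 called there, where 2.39% of all genes were called higher. In that comparison 10 of 12 had higher fitted levels, beside 7438 of all 13542 genes, with medians of 0.73 and 0.08. EP300, an acetyltransferase, had 30.2 and 16.0 in arousal, against 7.10 and 7.74 in torpor, a difference of 1.45 (SE 0.32, adjusted p = 0.143). NCOA3 had 21.5 and 11.8 in arousal against 7.78 and 6.56 in torpor, a difference of 1.06 (SE 0.31, adjusted p = 0.174). Both torpor libraries of EP300, NCOA3 and NRIP1 lay below the other 6, in 3 of 12 coregulators against 8.48% of all genes tested. Within arousal the coregulators were lower in arousal 2 than in arousal 1, with a median of -0.66, while the 9 induced genes had a median of 0.42 and all genes one of -0.01.

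Of the 14 chaperones and co-chaperones that load the receptor, limma called none in any comparison. Of all genes it called 0% to 5.52%, depending on the comparison. At most 3 had an unadjusted p under 0.05 in one comparison, arousal against summer active, where 28.9% of all genes had, and 8 of the 14 had no overlap there on the higher side, against 32% of all genes. Their median was 0.21 in that comparison, 0.13 in torpor against summer active, 0.06 in arousal against torpor and -0.11 in winter active against torpor. DNAJA1, an HSP70 co-chaperone, had 112 and 137 in torpor, against 60.5 and 71.5 in summer active, a difference of 0.90 (SE 0.35, adjusted p = 0.269). In arousal it had 157 and 120.6, a difference from summer active of 1.06 (SE 0.35, adjusted p = 0.102). STUB1, a ubiquitin ligase acting on chaperone clients, had 86.6 and 102 in arousal, against 126 and 124 in torpor, a difference of -0.41 (SE 0.21, adjusted p = 0.308).

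Of 8 genes for steroid handling and the related receptor, none was called by limma in any comparison. Of all genes, 0% to 5.52% were called, depending on the comparison. At most 1 of the 8 had an unadjusted p under 0.05 in one comparison. That was so in arousal against torpor (19.7% of all genes), arousal against summer active (28.9%) and the pooled comparison with torpor (19.6%). NR3C2, the mineralocorticoid receptor, which also binds glucocorticoids, was low throughout. It had 1.58 and 2.53 in summer active, 2.33 and 2.55 in torpor, 7.31 and 4.43 in arousal, and 3.15 and 4.64 in winter active, and differed by 1.15 at arousal against summer active (SE 0.33, adjusted p = 0.0762). HSD11B1, which regenerates active hormone from its inert form and is abundant in liver, stood at 128 in arousal 2 and at 27.4 or less in the other 7 libraries. Its arousal against torpor difference was 1.55 (SE 0.94, adjusted p = 0.376). HSD11B2, which inactivates the hormone, was at 5.11 in summer active 2 and at 1.35 or less elsewhere. SERPINA6, the hormone's carrier protein in plasma and a liver product, was at 7.86 in summer active 1, at 0.253 or less in 3 libraries and listed at 0 in both torpor and both winter active libraries.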

How the data were processed

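Whole-spleen RNA was sequenced in 8 libraries. Quantification tools were kallisto 0.46.2 with sleuth 0.30.0, per the submitters' processing notes. Which transcriptome was used, and how values were summed and rescaled, the sources used here do not say. The authors deposited 1 value per gene and library, a rescaled TPM signal whose columns do not sum to 1000000. Depth is therefore unknown.

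All 19652 gene identifiers matched the annotation of assembly mRhiFer1_v1.p, used for names alone. Genes with a mean of at least 1 (13542) were log2-transformed after adding 1 and tested in limma 3.58.1 (R 4.3.3), using lmFit and trended eBayes. A single fit of 4 state means used all 8 libraries, with 4 residual and 3.29 prior degrees of freedom. The threshold was a Benjamini-Hochberg adjusted p under 0.05 over all genes tested. An exact test of 2 against 2 libraries could not go below 0.333 (two-sided). The fit was tested on simulated data. The 10 members, the lists and the tests were chosen with earlier results of these data known. All members were named. Of the 4 other pathway lists, the text names genes past the threshold or, in each comparison, from the 3 with the smallest p. Genes like NR3C1, FKBP5 and KLF9 were the 5 nearest with a real symbol. Genes named for having both libraries of a state below or above the other 6 were chosen after their values were seen. Results were recomputed leaving out each library, with a replicate block, with robust eBayes, after quantile normalization, median-of-ratios scaling or equal column totals, with a minimum mean of 5 or none, and with a pseudocount of 0.1.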

Additional observations from a re-analysis of the deposited data

How the results depend on the processing

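The depth behind each value is unknown, and fits without a library assume that the lone replicate of a state varies like the other states. Scaling the columns to 1000000 changed the number of members called most: 4 in arousal against torpor, 2 in winter active against summer active, 5 in arousal against summer active, 3 in arousal and winter active pooled against torpor and 7 in the F test, against 0, 0, 1, 0 and 0 as reported. Over all genes the same scaling called 445, 779, 6099, 310 and 2977 in that order, against 0, 140, 748, 0 and 106 as reported. It also turned the signs of SGK1 in torpor against summer active (0.29), GLUL in winter active against torpor (0.013), KLF9 (0.53), FAM107A (0.69) and ERRFI1 (0.60) in arousal against summer active, and TSC22D3 in winter active against arousal (-0.18), and left 4 members with both torpor libraries lowest, against 6. With no filter, and without any 1 of the 8 libraries (0 to 0), arousal against summer active called 0 members. Median-of-ratios scaling turned KLF9 (-0.017) and GLUL (-0.015) in winter active against summer active, TSC22D3 (-0.0091) and CEBPD (-0.024) in arousal against summer active, SGK1 in winter active against arousal (0.012) and GLUL in the pooled comparison (-0.089). Quantile normalization turned GLUL in winter active against torpor (0.00068), KLF9 in winter active against summer active (-0.012), and TSC22D3 (-0.090) and SGK1 (0.071) in winter active against arousal. Leaving out 1 library turned further signs, none of a called difference. In torpor against summer active TSC22D3 ranged from -1.05 to 0.10. Against torpor, TSC22D3 ranged from -0.055 to 1.095 in arousal (torpor 2 or torpor 1 left out), from -0.036 to 1.11 in winter active and from -0.046 to 1.105 pooled, and GLUL from -0.42 to 0.086 in winter active and from -0.091 to 0.16 pooled. In winter active against summer active the ranges were -0.20 to 0.53 for FKBP5, -0.16 to 0.62 for ZBTB16, -0.23 to 0.28 for KLF9, -0.12 to 0.26 for TSC22D3, -0.088 to 0.61 for CEBPD and -0.22 to 0.28 for GLUL. In arousal against summer active they were -0.20 to 1.15 for ZBTB16, -0.93 to 0.54 for KLF9, -0.16 to 0.26 for TSC22D3, -0.27 to 0.18 for FAM107A, -0.31 to 0.38 for CEBPD and -0.67 to 0.39 for ERRFI1. In winter active against arousal they were -0.92 to 0.43 for ZBTB16, -0.51 to 0.95 for KLF9, -0.19 to 0.23 for TSC22D3, -0.11 to 0.10 for SGK1 and -1.06 to 0.0083 for ERRFI1. The cause of these turns was not tested. Of 1120 recomputed member differences, 1053 kept their sign and side of the threshold. As only 1 difference was called as reported, keeping the side mostly meant staying uncalled. Robust eBayes, the replicate block and the filter settings leave a log2 difference unchanged, so no sign could turn there. Leaving out a library of a state outside the comparison does not change it either. In 24 of 70 member comparisons the sign turned in at least 1 setting. The count of members with both torpor libraries lowest, recomputed after seeing the data, was 6 to 7 without 1 of the other 6 libraries. With the replicate number as a block, arousal against summer active still called 1 member and no other member count moved, while the F test called 46 genes of the whole table, against 106. Correlations of the deviations of same-numbered libraries ran from -0.191 to 0.322. With 2 libraries in a state they cannot decide whether same-numbered libraries belong together. The fit as reported took no pairing. Counts of called genes over the whole table also moved when 1 library was left out, from 9 to 312 in torpor against summer active (76 as reported), from 15 to 374 in winter active against summer active (140), from 25 to 677 in arousal against summer active (748) and from 12 to 183 in the F test (106). With no filter arousal against summer active called 284.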
